A study of Mus musculus with 6 samples.

Results

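The genes described here belong to the Fox, Sox, Klf, Gata, Tbx, Runx, Nr2f and Tfap2 families of DNA-binding transcription factors. They were chosen by symbol alone, and Foxc1, Foxc2, Foxd1, Foxm1 and Tbx18 were left out. The rule took 59 of the 12803 genes in the table. Of these 59 symbols, 21 start with Fox, 14 with Klf, 9 with Sox, 4 with Runx, 3 with Gata, 3 with Tbx, 2 with Nr2f and 2 with Tfap2. The symbols also took in Foxd2os and Foxl2os, noncoding genes on the opposite strand beside Foxd2 and Foxl2, and Runx1t1, a corepressor named after its fusion partner. GENCODE M21 holds 110 protein-coding symbols that fit the rule, of which 57 were listed. The other 53 were not analysed here.

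RNA was sequenced from 6 libraries of cultured mouse cells of kidney origin. The KO group held 3 libraries of the cell line Podocyte Derived Myosin 1e KO, with the genotype Myosin 1e KO. The WT group held 3 libraries of the line Murine Podocyte Cell (Mundel), with the genotype WT. The labels give no treatment, culture temperature or age. Podocytes are the epithelial cells that wrap the capillaries of the glomerulus, and myosin 1e is an actin motor at their membrane. Each genotype was 1 cell line, so the genotype and any other difference between the lines cannot be told apart. The labels do not say how the cultures of a line were kept apart, so each p reflects how far these samples spread, which may be technical. A heterozygous genotype named in the design text was not analysed here.

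As background, the families are told apart by the domain that reads DNA. Fox proteins use a forkhead domain, Sox proteins an HMG box that bends DNA, Klf and Gata proteins zinc fingers, Tbx proteins the T-box and Runx proteins the Runt domain. Nr2f proteins are orphan nuclear receptors, and Tfap2 proteins bind as dimers to a GC-rich site. Paralogs of a family often read nearly the same letters, so which paralog a cell transcribes is one of the traits that mark a lineage. In the kidney, Gata3, Tfap2a, Tfap2b and Sox9 are known from tubule and duct epithelium, and Klf15 and Klf6 from podocytes.

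Levels are given in CPM (counts-per-million), worked back from the log2 CPM that were deposited, as means ± SD of 3 libraries. The libraries held 35447096 to 42106461 reads in the listed genes, so that 3 reads equal 0.0703 to 0.0856 CPM. Myo1e was at 18.9, 16.3 and 16.8 CPM in KO against 184, 180 and 168 CPM in WT, which goes with the labels in all 6 (log2 fold change -3.35, SE 0.09, limma adjusted p = 2.1e-08; exact two-sided permutation p = 0.1, the smallest that 3 against 3 allows). Of 12 podocyte markers 7 were listed and tested, of which 2 rose and 4 fell, and their summed level was 758 to 1012 CPM in KO and 1537 to 1722 CPM in WT. The WT sum was largely Synpo and Kirrel, which fell from 681 ± 59 to 209 ± 71 CPM and from 603 ± 30 to 165 ± 25 CPM. Podxl and Cd2ap rose, from 50.4 ± 4.7 to 106 ± 8.4 CPM and from 275 ± 38 to 390 ± 27 CPM. The defining marker Nphs1 was not among the genes analysed here, and Wt1 was at 0.125 ± 0.1 CPM in KO against 4.4 ± 2 CPM in WT. Of 10 markers of simple or collecting duct epithelium 9 were tested and 8 rose, with a summed level of 7652 to 8373 CPM in KO and 16.3 to 65.2 CPM in WT. The others were Aqp2, which was not listed, and Hsd11b2, which did not pass (9.12 ± 2.5 CPM in KO, 30.9 ± 27 CPM in WT). Of 9 fibroblast or mesangial markers 5 were tested and 4 fell (327 to 653 CPM in KO, 3449 to 3852 CPM in WT), and of 6 proximal tubule markers 3 were tested and 2 fell (14.1 to 24.1 and 620 to 1247 CPM). None of 7 endothelial markers and 1 of 6 leukocyte markers, Cd68, was listed. Among all tested genes 34.3% rose and 33.8% fell, by the threshold given below. These marker sums moved with the lines and so with every result below, and their part in those results was not tested. In bulk RNA, fewer cells of a type and less RNA per cell cannot be told apart.

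Most of the 59 members differed between the lines. A gene was tested where it exceeded 0 log2 CPM in at least 3 libraries and passed at a limma adjusted p under 0.05 over all 12616 genes tested. Foxb1 was not tested. Of the 58 tested members 45 passed and 13 did not, where 68.1% of all tested genes passed and 31.9% did not. Of those that passed 20 were higher and 25 lower in KO (34.5% and 43.1% of the 58), against 34.3% and 33.8% of all tested genes. At least 2-fold separated the lines in 30 of 58 members (51.7%), 14 higher and 16 lower, against 27.9% of all tested genes, of which 11.7% were higher and 16.2% lower. The groups did not overlap in 47 members (81.0%), against 73.5% of all tested genes. The median log2 fold change was -0.21 over the members and 0.01 over all tested genes. For 9 of the 58 members (15.5%) no KO library and for 8 (13.8%) no WT library exceeded 0 log2 CPM, against 4.92% and 4.39% of all tested genes. The untested Foxb1 also had no WT library over it. Such genes enter the test only through the line where they are high, so they had to differ and the counts carry no support beyond description. Without them 13 of 41 members (31.7%) passed with at least 2-fold, against 20.6% of all tested genes, a count made after the values were seen. The 13 still include Foxn1, Gata3, Sox8 and Tbx15, which exceeded 0 log2 CPM in fewer than 3 libraries of their lower line. This count is therefore not free of the filter, and 37 of the 58 members exceeded 0 log2 CPM in all 6 libraries. No member had 0 reads in all libraries of a line.

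**Figure D1:**
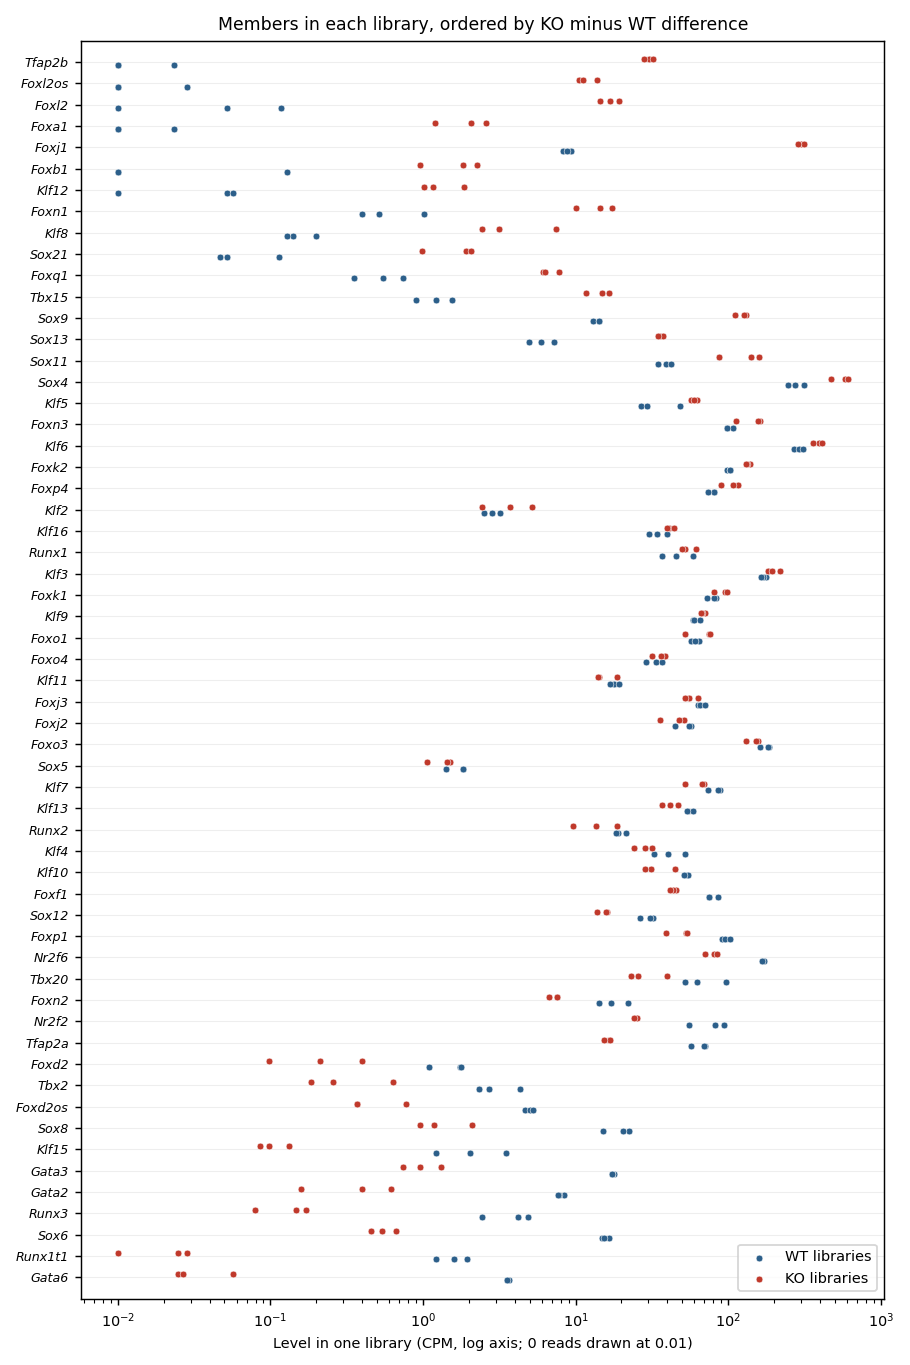
Level of 58 members in each of the 6 libraries, in CPM on a log axis, with KO libraries in red and WT libraries in blue and 0 reads drawn at 0.01. Genes are ordered by the difference between the lines, from Tfap2b (30.1 against 0.00781 CPM) at the top to Gata6 (0.0361 against 3.57 CPM) at the bottom, and the middle of the list holds genes whose libraries lie side by side.

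Among the Fox genes, 9 of 20 tested members rose, 6 fell and 5 did not pass. The shares that rose and fell were 45% and 30%, against 34.3% and 33.8% of all tested genes. The largest difference in CPM among the Fox genes was in Foxj1, the forkhead factor known to switch on the genes of motile cilia (chromosome 11, 116330704 to 116335399, minus strand, GRCm38). Foxj1 was at 302, 317 and 287 CPM in KO against 9.34, 8.33 and 8.76 CPM in WT. The groups lay far apart with little spread inside either (log2 fold change 5.09, SE 0.08, limma adjusted p = 2.5e-09). The relatives Foxj2 and Foxj3 did not pass, at 45.1 ± 8.2 against 52.5 ± 6.7 CPM and 56.9 ± 5.5 against 66.4 ± 4.2 CPM. Leaving out KO replicate 2 brought Foxj3 past the threshold (limma adjusted p = 0.0228).

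Foxl2, a forkhead factor of the ovary and eyelid, and its opposite-strand neighbour Foxl2os were both close to silent in WT and present in KO. Foxl2 was at 19.3, 16.8 and 14.5 CPM in KO against 0.117, 0.0517 and 0 CPM in WT. Foxl2os was at 10.6, 11.2 and 13.9 CPM in KO, and its only WT read, 0.0283 CPM, was in WT replicate 3. The ratio of KO to WT reads was 282 for Foxl2 (exact 95% interval 137 to 702, 1916 reads against 7) and 1386 for Foxl2os (248 to 54777, 1346 reads against 1). These intervals, like those below, cover counting error only. Foxl2 in WT stood at 0.0259 CPM without WT replicate 1 and 0.0844 CPM without WT replicate 3. The RefSeq starts of this pair lie 297 bases apart and point away from each other, and the annotated exons overlap by 12 bases. The promoter table holds 250 bases before and 50 after a start, and the windows of the 2 genes share 204 bases. The Foxl2 window (chr9:98955357-98955656, plus strand, RefSeq, GRCm38.p6) is shown because the pair moved together, with the shared stretch in capitals, written 5' to 3'.
Foxl2: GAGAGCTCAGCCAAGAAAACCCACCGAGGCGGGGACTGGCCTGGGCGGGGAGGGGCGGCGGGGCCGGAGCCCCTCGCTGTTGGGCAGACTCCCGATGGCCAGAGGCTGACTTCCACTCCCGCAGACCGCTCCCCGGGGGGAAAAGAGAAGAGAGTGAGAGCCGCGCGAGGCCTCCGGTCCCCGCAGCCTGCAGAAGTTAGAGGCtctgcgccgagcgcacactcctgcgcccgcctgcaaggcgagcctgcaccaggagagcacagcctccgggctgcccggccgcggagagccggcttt
It holds 27 CG pairs.

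A second divergent pair went the other way. Foxd2, a forkhead factor of embryonic mesenchyme, was at 0.237 ± 0.15 CPM in KO against 1.55 ± 0.39 CPM in WT, and its neighbour Foxd2os at 0.504 ± 0.23 and 4.99 ± 0.31 CPM (log2 fold changes -2.72 and -3.32). The KO mean of Foxd2 was 0.155 CPM when KO replicate 2 was left out. The strand setting of the counting is not given in the sources used here, so reads of such neighbours cannot be assigned with certainty where they overlap.

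Further forkhead genes of restricted tissues were higher in KO. Foxn1, known from thymic epithelium and hair follicles, was at 14.4, 17.3 and 10.1 CPM in KO against 0.398, 0.517 and 1.02 CPM in WT (log2 fold change 4.46, limma adjusted p = 8.4e-06). Foxq1, a forkhead factor of epithelia, was at 7.8, 6.08 and 6.26 CPM in KO against 0.351, 0.543 and 0.735 CPM in WT, with 66.1% of its exon bases overlapped by a gene of the opposite strand, A530084C06Rik. The groups were apart in both genes. Foxa1, a factor known to open closed chromatin in endodermal and glandular epithelium, was low, at 1.95 ± 0.71 CPM in KO with a single WT read (ratio 227, 40.2 to 8987). Foxb1, the untested member, had 189 reads in KO and 5 in WT, and all 5 were in WT replicate 2.

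The FoxO genes differed by less than 2-fold. Foxo1, Foxo3 and Foxo4 are the factors that Akt keeps out of the nucleus when insulin or growth factors act. Foxo3, the Fox gene with the highest mean CPM over both lines, was at 158, 152 and 131 CPM in KO against 185, 181 and 163 CPM in WT. The difference was small (log2 fold change -0.27, SE 0.09, limma adjusted p = 0.033) and 6 of 14 other settings did not call it, among them those without KO replicate 2, KO replicate 3, WT replicate 1 or WT replicate 2 (adjusted p 0.017 to 0.104 over the settings). Foxo1 and Foxo4 did not pass, with log2 fold changes of 0.14 and 0.10. Foxo1 passed without KO replicate 3 (limma adjusted p = 0.0124). Summed per length, the FoxO genes were at 37.4 ± 3.4 CPM per kb of exon in KO and 39.8 ± 2.7 in WT.

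Of the FoxK genes, known in autophagy and glycolysis control, Foxk2 rose from 101 ± 2.9 to 134 ± 4.7 CPM and Foxk1 did not pass (91.5 ± 9.5 CPM in KO, 78.8 ± 5.6 CPM in WT; limma adjusted p = 0.0170 without KO replicate 3). Foxp4 rose from 78.8 ± 4.3 to 104 ± 13 CPM while its relative Foxp1 fell from 96.4 ± 6 to 48.9 ± 8.3 CPM. Foxn3 rose from 101 ± 5.7 to 144 ± 27 CPM (limma adjusted p = 0.012, a call lost by a narrow margin without KO replicate 1). Its relative Foxn2 was at 6.67, 7.53 and 7.56 CPM in KO against 14.3, 17.1 and 22.1 CPM in WT, without overlap (log2 fold change -1.27). Foxf1, a factor of lung and gut mesenchyme, fell from 78.5 ± 5.9 to 43.6 ± 1.8 CPM. Scaled to exon length, Foxf1 was first of the Fox genes in WT with 20.8% ± 1.7 of the family's summed level and Foxj1 had 2.15% ± 0.15. In KO Foxj1 was first with 42.4% ± 1.7 and Foxf1 had 6.64% ± 0.27. The summed Fox level was 272 CPM per kb in KO and 156 in WT.

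**Figure D2:**
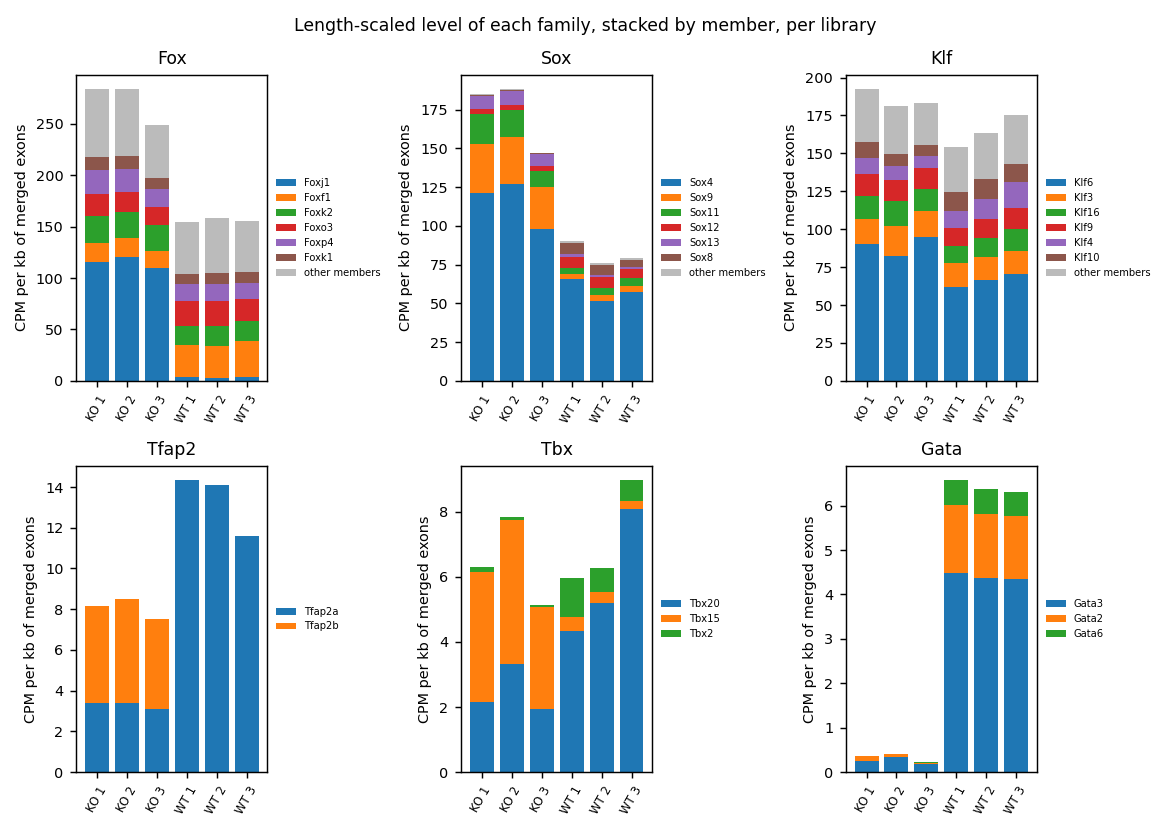
Stacked bars give the CPM per kb of merged exons of the Fox, Sox, Klf, Tfap2, Tbx and Gata factors in each library, with up to 6 members drawn apart and the rest summed. Foxj1 takes 42.4% of the Fox bar in KO and 2.15% in WT, Sox4 leads the Sox bar and Klf6 the Klf bar in both lines, and Tfap2b and Tbx15 take most of their bars in KO only.

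The Sox genes of groups C, D and E each held members that rose and members that fell. Of 9 members, 5 rose and 3 fell (55.6% and 33.3%, against 34.3% and 33.8% of all tested genes). Sox5 did not pass (1.33 ± 0.24 CPM in KO, 1.7 ± 0.24 CPM in WT). In group E, Sox9, a regulator of cartilage and of kidney tubule growth and repair, was at 131, 127 and 111 CPM in KO against 13.1, 14.3 and 14.3 CPM in WT. Its close relative Sox8 was at 1.18, 2.08 and 0.955 CPM in KO against 22.5, 20.4 and 15.1 CPM in WT. The log2 fold changes were 3.14 (SE 0.09) and -3.81 (SE 0.29), with limma adjusted p = 3.5e-08 and 7.2e-06. Per length, Sox9 stood 46.0 to 87.3 times above Sox8 in the KO libraries, while in the WT libraries Sox8 stood 1.40 to 2.28 times above Sox9. The group E sum was 30.1 ± 2.7 CPM per kb in KO and 9.56 ± 1.1 in WT.

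Group D proteins lack an activation domain and work with partner factors. Sox13 was at 36.1, 37.4 and 35 CPM in KO against 7.19, 5.98 and 4.92 CPM in WT. Sox6 was at 0.541, 0.457 and 0.663 CPM in KO against 14.8, 16.6 and 15.3 CPM in WT. Neither gene's groups overlapped, and the changes had opposite signs (log2 fold changes 2.60 and -4.76, limma adjusted p = 1.2e-06 and 1.6e-07). Sox13 exceeded Sox6 per length by 181 to 282 times in the KO libraries and by 1.10 to 1.67 times in the WT libraries. With the longest transcript as the length the order in WT turned in 2 of 3 libraries (ratios 1.14, 0.847 and 0.754), so it is not settled, while the KO ratios were 124 to 192.

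Group C, known for progenitor survival in kidney and nervous system, held Sox4, the Sox gene with the highest level in both lines. Sox4 was at 581, 608 and 470 CPM in KO against 315, 248 and 276 CPM in WT (log2 fold change 0.98, limma adjusted p = 0.00018). Sox11 was at 161, 142 and 86.9 CPM in KO against 34.5, 39 and 42.3 CPM in WT (log2 fold change 1.71, limma adjusted p = 0.00012). Both were higher in every KO library, with KO replicate 3 the lowest of the KO libraries in each. An opposite-strand gene, Gm26735, overlaps 54.6% of the Sox4 exon bases. Sox12, the third member of the group, fell from 29.7 ± 3 to 15.2 ± 1.2 CPM. Sox4 held 66.5% ± 0.96 of the Sox family's level per length in KO and 71.2% ± 2.7 in WT, so it led the family in both lines. Sox21, a repressor of group B, was at 1.65 ± 0.58 CPM in KO against 0.0706 ± 0.037 CPM in WT (187 reads against 8).

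**Figure D3:**
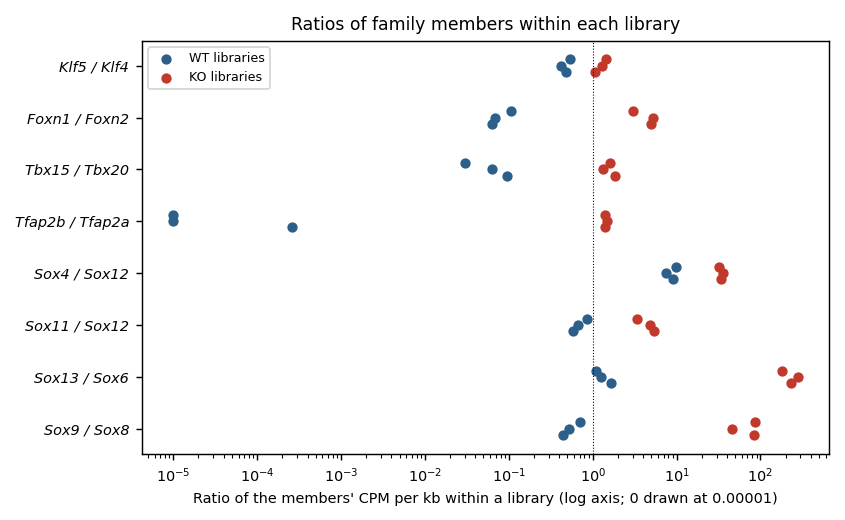
Each point is the ratio of the CPM per kb of 2 family members in 1 library, on a log axis, with KO in red, WT in blue and a ratio of 0 drawn at 0.00001. The pairs were chosen with the values known, and in each the 3 KO libraries lie above the 3 WT libraries, as for Sox9 over Sox8 with 46.0 to 87.3 against 0.439 to 0.714.

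The Klf genes, readers of CACCC and GC-rich sites, differed by less than 2-fold in each member with a mean over 5 CPM in either line. Of 14 members 4 rose, 5 fell and 5 did not pass, with a median log2 fold change of 0.18. The shares that rose and fell were 28.6% and 35.7%, near the 34.3% and 33.8% of all tested genes. At least 2-fold was passed by 21.4%, against 27.9% of all tested genes. Klf6, an early-response factor with a known part in podocyte mitochondria, was at 397, 363 and 416 CPM in KO against 271, 291 and 311 CPM in WT. It was higher in every KO library, by a small amount (log2 fold change 0.43, SE 0.09, limma adjusted p = 0.0027). Klf6 led the family per length with 48.1% ± 3.2 of its level in KO and 40.3% ± 0.3 in WT. Klf5, a factor of proliferating epithelium and the collecting duct, was at 57.2, 62.4 and 59.9 CPM in KO against 26.7, 29.3 and 48.5 CPM in WT (log2 fold change 0.83). Klf4, known for epithelial barrier and podocyte differentiation, was at 31.7, 28.5 and 24.2 CPM in KO against 32.9, 40.5 and 52.2 CPM in WT (log2 fold change -0.56, limma adjusted p = 0.019, and 0.0735 without KO replicate 3). Per length, Klf5 exceeded Klf4 in the 3 KO libraries and Klf4 exceeded Klf5 in the 3 WT libraries.

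The 3 Klf changes of at least 2-fold were in members with means under 5 CPM in both lines. Klf15, a kidney factor known to promote podocyte differentiation, was at 0.106 ± 0.024 CPM in KO against 2.26 ± 1.2 CPM in WT (limma adjusted p = 4.2e-05). Klf8 and Klf12, repressors that bind CtBP, were at 4.34 ± 2.7 against 0.156 ± 0.037 CPM and 1.34 ± 0.45 against 0.0361 ± 0.031 CPM. Klf8 was at 7.41 CPM in KO replicate 1, and its KO mean was 2.80 CPM without that library. Klf10, Klf13 and Klf7 fell by 0.63, 0.43 and 0.38 on the log2 scale. The call for Klf7 (limma adjusted p = 0.026) was lost without KO replicate 3, WT replicate 1 or WT replicate 2, with 0.00538 to 0.0788 over the settings, and 39.3% of its exon bases are overlapped by Gm26649. Klf2, Klf3, Klf9, Klf11 and Klf16 did not pass, with log2 fold changes from -0.20 to 0.34. Of these, Klf2 passed without KO replicate 3 (limma adjusted p = 0.0398), Klf3 without KO replicate 1 (0.0394), with median centring (0.0401) and with quantile normalization (0.0373), and Klf16 without WT replicate 3 (0.0154).

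All 3 listed Gata genes fell, where 33.8% of all tested genes fell. Each exceeded 0 log2 CPM in the 3 WT libraries and in at most 1 KO library. They passed the filter only with WT, so their falls were largely fixed by it. Gata3, which guides the nephric duct and marks collecting duct and mesangium, was at 0.96, 1.31 and 0.743 CPM in KO against 17.8, 17.4 and 17.3 CPM in WT. Gata2, known from blood progenitors and the collecting duct, was at 0.615, 0.399 and 0.159 CPM in KO against 8.36, 7.76 and 7.63 CPM in WT. The groups were far apart in both (log2 fold changes -4.12 and -4.42, limma adjusted p = 7e-07 and 2.4e-05). Gata6, a factor of endoderm and heart, was close to silent in KO, with 4 reads there against 417 in WT, a 101-fold difference (39.3 to 373). Summed per length, the family was at 0.331 ± 0.099 CPM per kb in KO and 6.41 ± 0.14 in WT, and Gata3 led in both lines.

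Among the Runx symbols, Runx3 and Runx1t1, both low, passed and fell. Runx1, a regulator of blood and of epithelial growth, was at 52.4, 61.8 and 50.1 CPM in KO against 36.6, 45.2 and 59.1 CPM in WT. The groups overlapped (log2 fold change 0.24, SE 0.17, limma adjusted p = 0.23, and 0.0231 without WT replicate 3). Runx2, the bone factor, was at 14 ± 4.5 CPM in KO against 19.6 ± 1.6 CPM in WT (limma adjusted p = 0.055, with 0.00726 without KO replicate 2 and 0.0390 by limma voom). Runx3, known from neurons and lymphocytes, fell from 3.82 ± 1.2 to 0.133 ± 0.048 CPM (log2 fold change -4.59). Runx1t1 had 186 reads in WT and 2 in KO, a ratio of 90.3 (24.7 to 751). The core site of Runx proteins, TGTGGT or ACCACA on the other strand, was found in a promoter window of Runx1, Runx2 and Runx3, against 18.9% of the 27025 genes of the promoter table. In each, the core ACCACA stood as a pair with the letters GA between, a tandem that 4 genes of the table (0.0148%) hold on either strand. The tandem was searched for after the single matches were seen. The lines below give 30 bases around it with the core in capitals, written 5' to 3' along the gene, to show what the changed Runx3 shares with the Runx genes that did not pass. They lie at chr16:92826025-92826054 (minus strand), chr17:44814583-44814612 (minus) and chr4:135120503-135120532 (plus), in GRCm38.p6.
Runx1: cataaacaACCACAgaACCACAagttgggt
Runx2: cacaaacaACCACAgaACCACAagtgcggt
Runx3: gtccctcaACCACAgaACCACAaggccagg
The tandem begins 29 bases into the transcribed part in Runx1 and 24 in Runx2 and lies 134 bases before the start in Runx3. A match describes the letters and is not evidence of binding.

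The Tbx genes also held members on both sides. Tbx15, known from skeletal and adipose development, was at 15, 16.7 and 11.8 CPM in KO against 1.55, 1.22 and 0.905 CPM in WT. Tbx20, a heart factor, was at 25.7, 39.7 and 23.2 CPM in KO against 52.2, 62.3 and 96.9 CPM in WT. The groups did not overlap in either gene (log2 fold changes 3.56 and -1.24, limma adjusted p = 2.7e-06 and 0.0026). Per length, Tbx15 held 60.5% ± 3.3 of the family's level in KO and Tbx20 82.0% ± 8.6 in WT. Tbx2, a repressor of cell cycle inhibitors, fell from 3.13 ± 1.1 to 0.361 ± 0.24 CPM, and its KO level was 0.221 CPM without KO replicate 1.

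Tfap2b and Tfap2a, factors of the distal nephron and neural crest, changed in opposite directions. Tfap2b was at 30.2, 32.2 and 27.9 CPM in the KO libraries, and its single WT read, 0.0234 CPM, was in WT replicate 1. The ratio of KO to WT reads was 3511 (630 to 138712). Tfap2a was at 16.6, 16.7 and 15.3 CPM in KO against 70.2, 69.2 and 56.7 CPM in WT (log2 fold change -2.01, SE 0.11, limma adjusted p = 8.3e-07). In KO Tfap2b stood at 59.0% ± 0.75 of the pair's level per length, and in WT Tfap2a stood at 99.99% ± 0.015. The sum of the pair was 8.05 ± 0.49 CPM per kb in KO and 13.3 ± 1.5 in WT. The promoter windows of this pair are shown because its members went in opposite directions, with CG pairs in capitals, written 5' to 3'. Tfap2b has 1 RefSeq start in the table (chr1:19211804-19212103, plus strand) and Tfap2a has 2 (chr13:40734871-40735170 and chr13:40733746-40734045, minus strand), in GRCm38.p6.
Tfap2b: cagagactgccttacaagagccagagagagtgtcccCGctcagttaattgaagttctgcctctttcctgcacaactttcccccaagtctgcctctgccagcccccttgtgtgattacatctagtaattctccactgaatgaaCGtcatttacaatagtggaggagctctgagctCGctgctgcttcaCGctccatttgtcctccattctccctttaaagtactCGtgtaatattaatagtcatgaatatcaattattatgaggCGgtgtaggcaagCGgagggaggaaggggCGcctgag
Tfap2a, outer start: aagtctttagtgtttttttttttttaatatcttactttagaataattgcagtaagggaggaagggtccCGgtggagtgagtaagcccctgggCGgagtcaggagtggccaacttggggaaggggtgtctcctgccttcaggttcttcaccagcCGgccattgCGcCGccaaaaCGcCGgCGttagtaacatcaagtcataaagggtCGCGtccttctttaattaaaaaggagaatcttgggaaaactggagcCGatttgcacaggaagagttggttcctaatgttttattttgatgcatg
Tfap2a, inner start: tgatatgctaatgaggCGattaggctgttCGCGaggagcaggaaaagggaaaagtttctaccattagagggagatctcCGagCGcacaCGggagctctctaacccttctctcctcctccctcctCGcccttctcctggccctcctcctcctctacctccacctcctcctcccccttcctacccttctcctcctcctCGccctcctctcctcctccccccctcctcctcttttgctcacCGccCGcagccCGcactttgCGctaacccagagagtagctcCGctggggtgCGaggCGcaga
The windows hold 8, 11 and 15 CG pairs. None holds the palindromic letters GCCNNNGGC of the family's own site, which 18.5% of the genes of the table and 18 of 42 matched members (42.9%) do. The share over the listed genes alone was not counted, so the difference between these shares is not read as a trait of the members. Absence of these letters from a window says nothing about binding elsewhere.

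The nuclear receptors Nr2f2 and Nr2f6 both fell. Nr2f2, or COUP-TFII, a factor of veins and mesenchyme, was at 25.1, 25.4 and 24.3 CPM in KO against 94.2, 82.2 and 55.2 CPM in WT (log2 fold change -1.60, limma adjusted p = 6.8e-05). Nr2f6 was at 80.4, 70.6 and 84.2 CPM in KO against 168, 172 and 167 CPM in WT (log2 fold change -1.11, limma adjusted p = 6.3e-06). In both the lowest WT library was above the highest KO library. The gene Ocel1 on the other strand overlaps 54.4% of the Nr2f6 exon bases. Ocel1 is itself a listed gene, while the overlapping genes named above for Foxq1, Sox4 and Klf7 are not. The level of Ocel1 was not compared with that of Nr2f6.

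The 7 members with a mean of at least 30 CPM over the 6 libraries that passed with at least 2-fold were Foxj1, Sox9, Sox11, Nr2f2, Nr2f6, Tbx20 and Tfap2a. They were 7 of 30 members at that level (23.3%), against 17.4% of all tested genes at it, and the median absolute log2 fold change of the 30 was 0.43. Under 30 CPM, 23 of 28 members did so (82.1%), against 40.2% of all tested genes. The filter fixed much of that count: 17 of the 28 members (60.7%) had no library over 0 log2 CPM in 1 of the lines, against 18.9% of all tested genes under 30 CPM. Without such genes 6 of 11 members under 30 CPM were past 2-fold (54.5%), against 26.7% of all tested genes. These 6 were Foxn1, Foxn2, Gata3, Sox8, Sox13 and Tbx15. Foxn1 and Tbx15 exceeded 0 log2 CPM in only 1 and 2 WT libraries, and Gata3 and Sox8 in only 1 and 2 KO libraries. They too passed the filter only with the line where they are high, so this count is not free of the filter. With a boundary of 10 CPM the shares were 29.7% of members and 19.8% of all tested genes at or over it, and 90.5% and 53.8% under it. At 100 CPM they were 22.2% and 17.8%, and 57.1% and 30.5%. The boundaries were chosen after the values were seen, and no relation to the level is drawn from them.

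**Figure D4:**
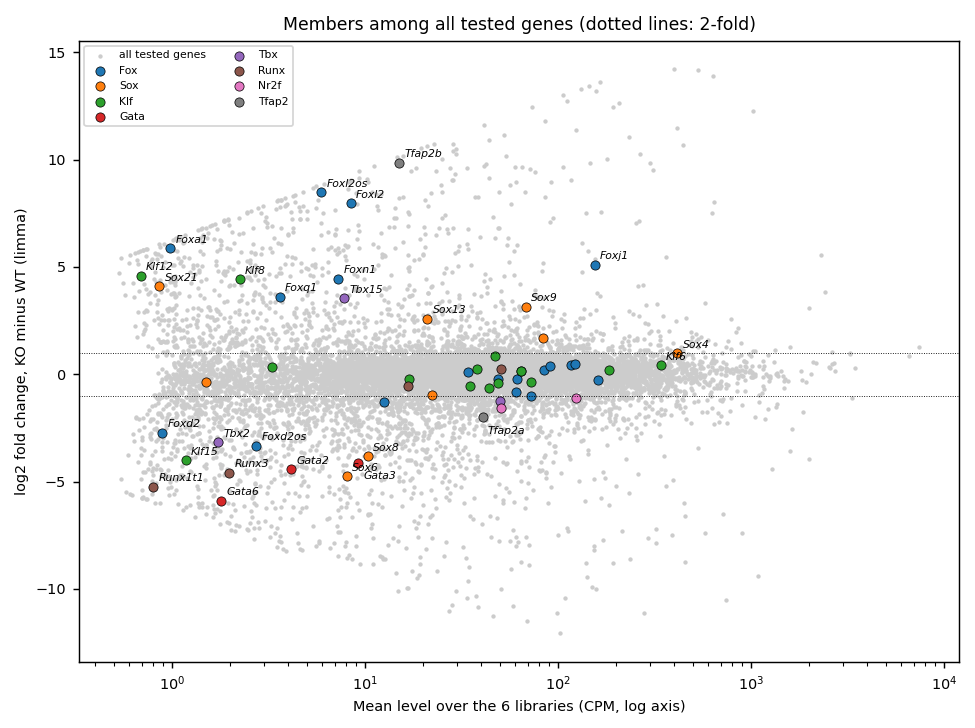
Log2 fold change, KO minus WT, against the mean level over the 6 libraries in CPM on a log axis, for all 12616 tested genes in grey and 57 tested members coloured by family, with dotted lines at 2-fold. At 30 CPM or more 7 members lie outside the dotted lines, from Foxj1 at 5.09 and Sox9 at 3.14 to Tfap2a at -2.01, and Sox4 lies at 0.98. Of the 28 members under 30 CPM 23 lie outside them, among these 17 with no library over 0 log2 CPM in 1 of the lines.

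Of 42 members with a promoter in the RefSeq table (17 of 59 were not matched), 34 (81.0%) had a start with at least 10 CG pairs in its 300 bases. The share was 87.1% of 10027 listed genes with a promoter and 45.8% of the whole table. Letters of each family's core site were searched for on both strands. CACCC, read by Klf proteins, was in 66.7% of members and 59.8% of all genes, and TGTTTAC, read by Fox proteins, in 7.14% and 4.05%. AACAAT of Sox proteins was in 9.52% and 12.2%, AGATAA of Gata proteins in 2.38% and 12.7% and AGGTCA of nuclear receptors in 11.9% and 18.1%. AGGTGTGA of T-box proteins was in none of the 42 members and 1.48% of all genes. The GC box GGGCGG was in 73.8% and 38.2%, the CCAAT box in 42.9% and 41.1% and the TATA box TATAAA in 4.76% and 15.7%. The letters of several of these sites overlap in GC-rich windows, so the shares are not independent. All genes here means the whole promoter table, which also holds genes that were not listed. The median GC content was 68% for members, 62.3% for listed genes and 53.3% for the whole table. Site shares over the listed genes alone were not counted, so no difference in these shares is read as a trait of the members.

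Genes known to work with these factors were counted from lists, and the counts stand against 34.3% of all tested genes higher and 33.8% lower. Of 11 Runx partners 3 rose and 6 fell (median log2 fold change -0.37). Cbfb, the obligate partner of Runx proteins, fell from 115 ± 11 to 72.8 ± 8.7 CPM, and the corepressor Tle1 fell from 35.5 ± 3.7 to 17.7 ± 0.93 CPM. Cbfa2t3, a relative of Runx1t1, rose from 1.04 ± 0.36 to 4.78 ± 1.2 CPM. Of 7 tested Gata partners 2 rose and 3 fell (median -0.26). Trps1, an atypical Gata-type repressor, fell from 54.6 ± 5 to 21.7 ± 2.8 CPM and the adaptor Lmo4 from 288 ± 56 to 129 ± 12 CPM. Of 7 tested Sp factors, the relatives of Klf, 1 rose and 4 fell (median -0.83). Sp3 fell from 128 ± 1.77 to 69.4 ± 4.86 CPM and Sp8 from 1.78 ± 0.3 to 0.0613 ± 0.054 CPM, while the epithelial Sp6 rose from 1.67 ± 0.36 to 13.9 ± 2.5 CPM. Of 8 tested Tfap2 and Nr2f cofactors 1 rose and 4 fell (median -0.38), with Cited2, a coactivator adaptor of Tfap2, at 162 ± 20 CPM in KO against 409 ± 15 CPM in WT. Of 9 tested nuclear receptors related to Nr2f, 2 rose and 6 fell (median -0.60), and the vitamin D receptor Vdr fell from 31.0 ± 3.6 to 1.26 ± 0.13 CPM.

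Lists of regulators and target genes were counted in the same way, and their counts stand against 34.3% of all tested genes higher and 33.8% lower. Of 21 tested FoxO regulators 8 rose and 8 fell (median -0.10), the kinase Sgk1 falling from 37.9 ± 9.1 to 4.85 ± 1.1 CPM and the 14-3-3 protein gene Sfn rising from 3.83 ± 0.26 to 85.2 ± 18 CPM. Of 20 tested FoxO targets 7 rose and 8 fell (median -0.20). Irs2, an insulin receptor substrate, fell from 139 ± 31 to 19 ± 5.2 CPM, and the stress gene Gadd45b rose from 70.1 ± 16 to 213 ± 15 CPM. Of 8 tested Sox9 targets 3 rose and 2 fell (median 0.11). The cartilage collagen Col2a1 was low in both lines, at 1.27 ± 0.4 and 1.52 ± 0.24 CPM, and did not pass, while Col11a1 rose from 0.232 ± 0.068 to 5.33 ± 0.7 CPM and Fgfr3 fell from 9.53 ± 1.6 to 0.447 ± 0.087 CPM. Of 6 tested SoxC and SoxF targets 3 rose and 2 fell (median 0.06), Tead2 rising from 55.1 ± 6 to 104 ± 3.7 CPM. Of 6 tested epithelial targets of Gata3 and Foxa1, 4 rose and 1 fell (median 1.74). The estrogen receptor Esr1 rose from 1.22 ± 0.52 to 7.58 ± 2.2 CPM. Krt18 and Krt19, which rose most on this list, were already counted among the epithelial markers above. Of 6 tested Klf2 and Klf4 targets 3 rose and 2 fell (median 2.41), and of 11 tested Tbx2 and Tbx3 targets 3 rose and 6 fell (median -0.65). On the Klf list, Thbd had 0 reads in WT and was at 39.2 ± 6.1 CPM in KO, and the alkaline phosphatase gene Alpl fell from 36.7 ± 12.7 to 0.226 ± 0.0632 CPM. Nppa, the atrial peptide gene on the Tbx list, fell from 9.16 ± 1.97 to 0.448 ± 0.175 CPM, and Ccn2, a matricellular gene on it, rose from 431 ± 128 to 3594 ± 300 CPM. None of these shares was tested against other genes.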

How the data were processed

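From each of the 6 samples, 100 ng of RNA was made into stranded mRNA libraries, per the labels' protocols. The submitters' processing notes name STAR 2.7.3a, Trimmomatic 0.39, Subread 1.6.4, featureCounts, edgeR and the build GRCm38, without their roles. For annotation, strand setting, filter and prior the entry is: not given in the sources used here. The authors deposited 1 table of log2 CPM. Subtracting its shared lowest value (-5.26) on the linear scale left whole multiples of a step in 100% of values (tolerance 0.001), which gave reads, library sizes and a prior of 1 read. Genes at low levels in all libraries were not analysed here.

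limma 3.58.1 (R 4.3.3) was run on the log2 values with an intensity trend and no covariate, on 12616 genes over 0 log2 CPM in at least 3 libraries. P-values were adjusted by Benjamini-Hochberg over these genes. The fit was also run on simulated reads (12100 genes, dispersion 0.01 for every gene), with 200 genes over 2 CPM in WT changed. There 100% of 100 genes changed 2-fold, 100% of 100 changed 4-fold and 16 of 11900 unchanged genes were called. In the data 68.1% of tested genes passed, and members such as Sox11 (130 ± 38 CPM in KO) spread more than was simulated. The simulated rates are therefore not error rates of this comparison. Count models were not the main test because the unit is log2. Intervals are exact binomial (Clopper-Pearson). Exon lengths and positions are from GENCODE M21, promoters from RefSeq. Replicates of a line differed by more than sampling noise. The members, gene lists and markers were chosen with earlier results of these data known. Values per library are given for members past the threshold with at least 2-fold and 5 CPM in the higher line, for the highest member of each family, and for Klf4 and Klf5, chosen after their values were seen. From each list, genes are named among the 3 that rose and the 3 that fell most, past the threshold and with at least 1 CPM in the higher line. Cbfb and Col2a1 fall outside that rule and were named after their values were seen. Protein sequences were not used here. Of the 59 members, 1 enters the counts but is not reported here, and neither is 1 gene list.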

Additional observations from a re-analysis of the deposited data

How the results depend on the processing

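Under 14 other settings of the limma fit (2 other filters, a pseudocount of 1 CPM, quantile and median scaling, limma voom on the recovered reads, no intensity trend, a replicate block and each library left out), 20 to 23 members were higher and 22 to 26 lower with every filter but the strictest, which tested 46 members and called 16 and 19. Without the antisense genes and Runx1t1 the counts were 19 and 23. Of 800 values of single members, 776 kept their direction and their side of the threshold, 12 lost the call, 12 gained it and 0 reversed. The 13 members concerned were Foxj2, Foxj3, Foxk1, Foxn3, Foxo1, Foxo3, Klf2, Klf3, Klf4, Klf7, Klf16, Runx1 and Runx2, and the cause was not tested. Replicate numbers showed no sign of pairing the samples. The deviations of same-numbered libraries correlated at 0.101, 0.0811 and -0.0951 across genes, and those of differently numbered ones at -0.217 to 0.177. With so few libraries these values cannot exclude a pairing. With the replicate block 20 members were higher and 26 lower, 8395 genes passed in place of 8590, and Foxj2 passed (adjusted p = 0.047). Scaling by the longest transcript in place of merged exons gave shares of the family level of 38.7% for Foxj1, 41.8% for Klf6, 55.2% for Tbx15, 81.3% for Runx1, 85.6% for Nr2f6 and 52.5% for Tfap2b in KO, and of 17.6% for Foxf1, 35.1% for Klf6, 63.3% for Gata3, 66.3% for Runx1 and 80.8% for Nr2f6 in WT. Genes at a few reads are limited by depth, and their fitted fold changes depend on the prior.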
